A study of Phaseolus vulgaris with 6 samples.

Results

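The genes described here are those whose RNA stood high in hooked hairs of the common bean (Phaseolus vulgaris) and low in 4 trichome libraries. They were chosen on TPM, an abundance of transcripts per gene length, scaled to a common total per library. Over the listed genes alone it summed to between 920150 (BG library 1) and 961603 (EPI library 1). A member had at least 10 TPM in both hooked hair libraries, and the lower of these was at least 4 times the highest of the 4 trichome libraries. Genes whose lower EPI library was at least 2 times the higher AG library were then left out. Of 27433 genes listed, 11827 reached 10 TPM in both hooked hair libraries, 135 of those also met the ratio, 10 were left out by the last step, and 125 were members. The levels in all 6 libraries thus chose the members, and the difference between hooked hairs and trichomes is a description here, not a finding.

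The series sequenced RNA of hair-like structures of the bean genotype L88-57, grown under normal conditions in a chamber at low light. It holds 3 groups of 2 libraries. AG and EPI are labelled trichomes, and BG is labelled hooked hairs. All groups share the genotype and the growth conditions, and the labels carry no treatment, plant age or meaning of the codes AG, EPI and BG. Nothing states that the pair of libraries in a group had different plants as their source, so p-values measure only the spread between libraries, which may be technical. RNA of whole structures was measured, in which more cells of a kind and more RNA per cell cannot be told apart.

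Plant hairs arise from epidermal cells that grow outward from the plane of the epidermis. Hooked hairs end in a curved, pointed tip. On bean plants such hairs hold on to neighbouring surfaces and can catch small insects. The tables identify genes only by Phvul numbers, without symbols or products, so no function is given to any gene below, and the identity of the structures could not be checked against marker genes.

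The libraries lay within 1.47-fold of each other in depth, judged by the ratio of read coverage to FPKM on the assumption of equal read lengths. EPI library 2 was the shallowest and BG library 1 the deepest. A level of 1 TPM corresponded to a median coverage of 1.08 (EPI library 2) to 1.62 (BG library 1) reads per base. In the hooked hair libraries the coverage of members was never below 13.8 reads per base, with medians of 46.6 and 57.5. In the trichome libraries their median coverage was 2.59 and 1.06 in AG and 3.34 and 0.585 in EPI, so the trichome levels of many members rest on few reads.

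**Figure D1:**
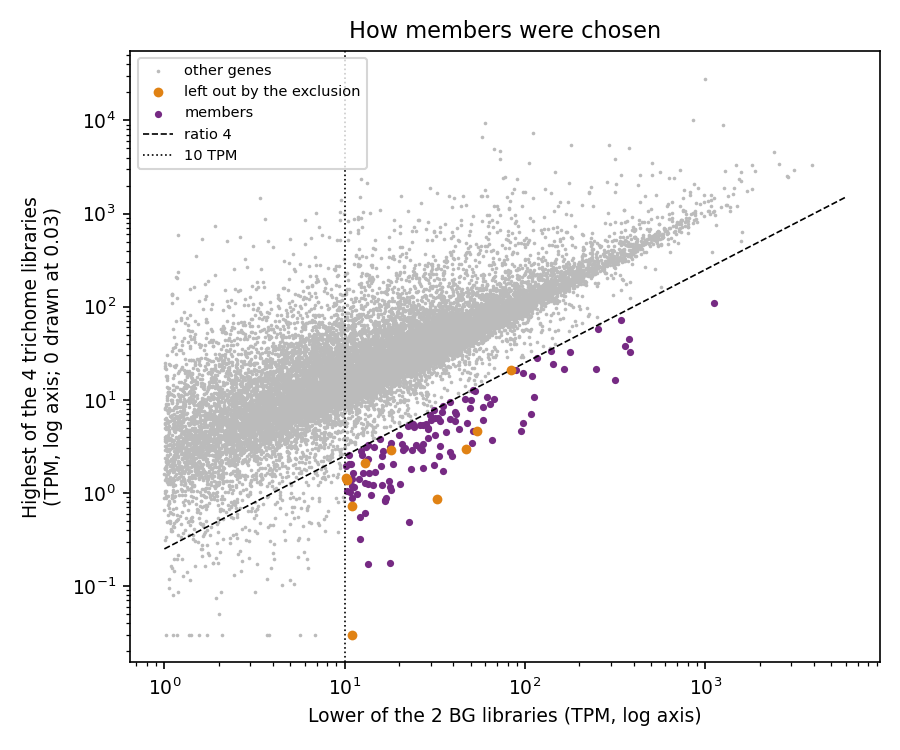
Each point is a gene reaching 1 TPM in both hooked hair (BG) libraries, placed by the lower BG library (x) and by the highest of the 4 trichome libraries (y), both in TPM on log axes. The 125 members lie to the right of the dotted line at 10 TPM and below the dashed line at a ratio of 4, and the 10 orange points are the genes that the last step left out.

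Together the members made up a small share of the RNA in hooked hairs. Their levels summed to 8180 TPM in BG library 1 and 12964 TPM in BG library 2, which was 0.889% and 1.36% of the listed TPM. The sums were 613.0 and 395.6 TPM in the AG libraries and 685.4 and 275.6 TPM in the EPI libraries. The median member stood at 28.8 and 45.1 TPM in the BG libraries, at 2.06 and 0.775 TPM in AG and at 2.51 and 0.540 TPM in EPI. A few genes carried most of the sum. The 12 members with the highest BG mean held 54.6% of it, while 25 members had a BG mean under 20 TPM and 19 members had one of at least 100 TPM.

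The most abundant member was Phvul.009G108100.v2.1 (chromosome 9, 16762151 to 16763330, plus strand). It stood at 1123 and 2231 TPM in the BG libraries, 110.2 and 8.54 TPM in the AG libraries, and 6.04 and 1.35 TPM in the EPI libraries. It was the 52nd most abundant gene of BG library 1 and the 8th of BG library 2, and alone it gave 13.7% and 17.2% of the members' TPM there. The 2 groups of trichomes did not overlap, with AG library 1 far above the other 3 trichome libraries. The BG mean was 1677 ± 783 TPM, the AG mean 59.4 ± 71.9 TPM and the EPI mean 3.69 ± 3.32 TPM (SD, n = 2). The SD in AG was above the mean, since the level in AG was set by library 1.

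Next in abundance was Phvul.010G077000.v2.1 (chromosome 10, 20385333 to 20387250, minus strand). Its levels were 359.7 and 1089 TPM in BG, 37.4 and 11.9 TPM in AG, and 9.74 and 2.87 TPM in EPI. It showed the same order of libraries as Phvul.009G108100.v2.1, with BG library 2 above BG library 1, then AG library 1, AG library 2, EPI library 1 and EPI library 2. The third most abundant member, Phvul.004G098201.v2.1 (chromosome 4, 30224866 to 30225941, minus strand), differed from both in its even level across trichomes. It stood at 378.5 and 483.6 TPM in BG, 40.2 and 40.1 TPM in AG, and 45.4 and 34.5 TPM in EPI. All 4 trichome libraries thus held it at a moderate level, near 40 TPM, and the BG mean was 431.1 ± 74.4 TPM, the AG mean 40.2 ± 0.046 TPM and the EPI mean 39.99 ± 7.70 TPM (SD, n = 2).

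Phvul.011G182500.v2.1 (chromosome 11, 49598759 to 49601038, plus strand) was among the 12 highest both by BG mean and by ratio. It stood at 536.5 and 316.6 TPM in BG, 2.86 and 16.1 TPM in AG, and 14.6 and 1.01 TPM in EPI. Here BG library 1 was the higher, and AG library 2 and EPI library 1 were the higher trichome libraries of their groups. Phvul.007G218100.v2.1 (chromosome 7, 34068787 to 34070448, plus strand) combined a high level with low trichome values. Its levels were 104.5 and 95.0 TPM in BG, 0.571 and 0.974 TPM in AG, and 4.61 TPM and listed at 0 in EPI.

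Of the abundant members with EPI library 1 as the highest trichome library and EPI library 2 low, 4 are given here. Phvul.001G100100.v2.1, described below with its neighbour, is another. Phvul.009G252900.v2.1 (chromosome 9, 37324930 to 37326730) stood at 383.0 and 444.9 TPM in BG, 9.14 and 0.432 TPM in AG, and 32.7 and 0.814 TPM in EPI. Phvul.009G162700.v2.1 (chromosome 9, 24156871 to 24159150) stood at 247.8 and 407.8 TPM in BG, 6.51 and 5.08 TPM in AG, and 21.5 and 0.595 TPM in EPI. Phvul.006G139100.v2.1 (chromosome 6, 24646648 to 24647580) stood at 163.8 and 228.8 TPM in BG, 3.68 TPM and listed at 0 in AG, and 21.4 and 0.0879 TPM in EPI. In all of these the ratio between the 2 EPI libraries was larger than that between the 2 BG libraries. The fourth, Phvul.002G048700.v2.1 (chromosome 2, 4538847 to 4540914), had the highest EPI library 1 level of any member, with 72.2 TPM there, 6.89 TPM in EPI library 2, 31.6 and 5.65 TPM in AG, and 340.8 and 500.0 TPM in BG.

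Phvul.006G129400.v2.1 (chromosome 6, 23721882 to 23724151) showed the opposite residue. It stood at 143.8 and 391.9 TPM in BG, 24.3 and 0.932 TPM in AG, and 0.409 and 0.638 TPM in EPI. AG library 1 alone held it above 1 TPM among the trichome libraries. Phvul.005G034700.v2.1 (chromosome 5, 3253459 to 3256533) was highest in EPI library 2 instead, with 8.41 and 32.7 TPM in EPI, 15.3 and 14.9 TPM in AG, and 178.6 and 443.7 TPM in BG. Phvul.002G196050.v2.1 (chromosome 2, 36061509 to 36062133) was uneven within both trichome groups, with 1.60 and 57.9 TPM in AG, 46.0 TPM and listed at 0 in EPI, and 381.0 and 252.4 TPM in BG.

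**Figure D2:**
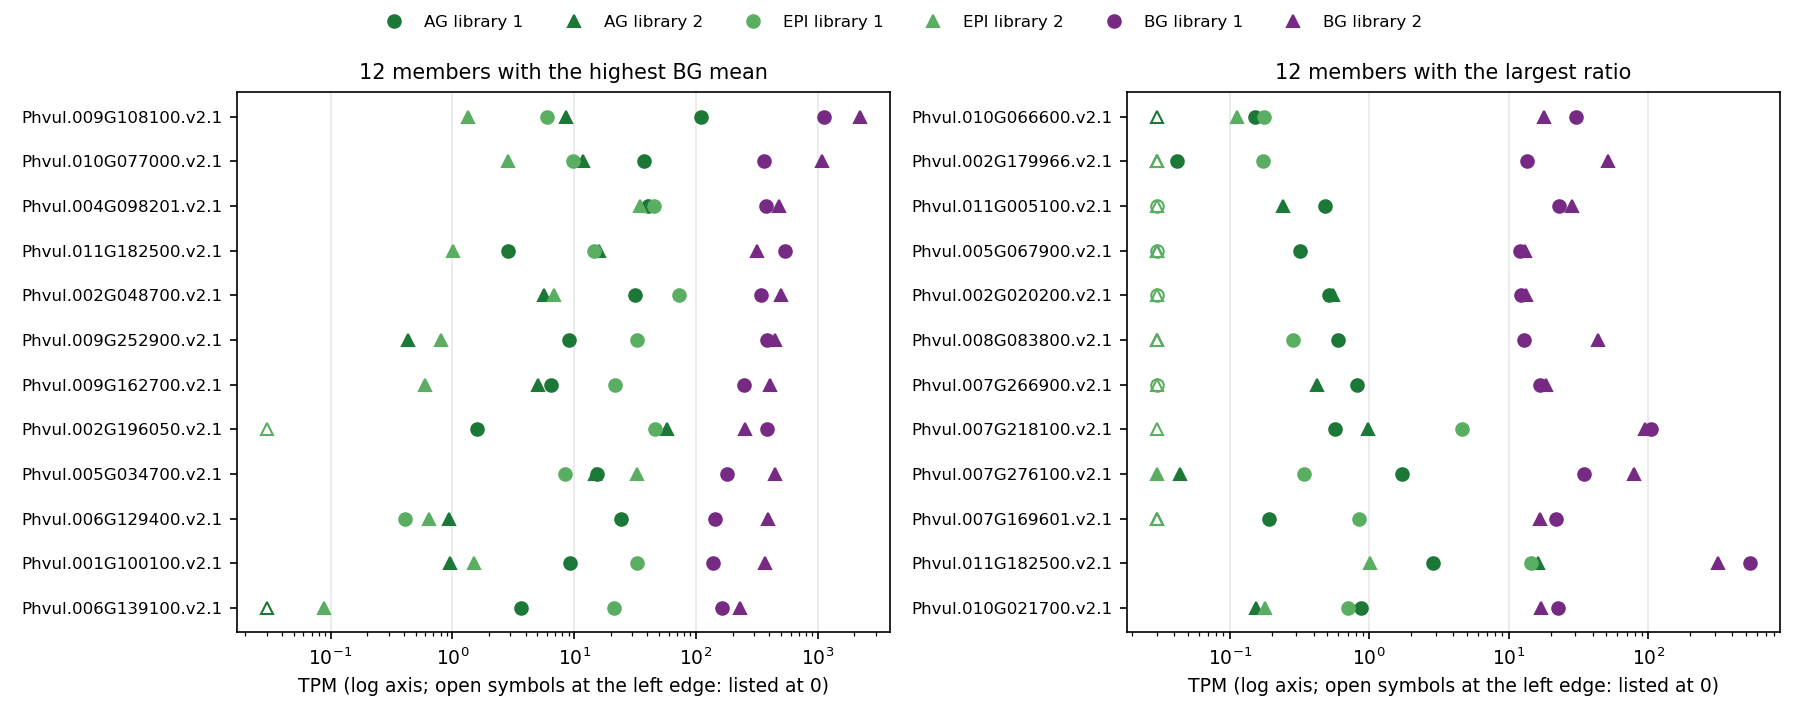
Levels in TPM (log axis) of the 12 members with the highest hooked hair (BG) mean (left) and the 12 with the largest ratio of the lower BG to the highest trichome library (right), 1 symbol per library, with open symbols at the left edge for values listed at 0. On the left Phvul.004G098201.v2.1 is even across trichomes near 40 TPM, while the trichome libraries of Phvul.009G108100.v2.1 spread from 1.35 to 110.2 TPM.

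The ratio of the lower BG library to the highest trichome library ranged from 4.01 to 101 over the members, with a median of 7.61. It was at least 8 for 58 members and at least 16 for 16 members. The largest ratio belonged to Phvul.010G066600.v2.1 (chromosome 10, 32855403 to 32858089, plus strand). It stood at 30.3 and 17.8 TPM in BG, 0.151 TPM and listed at 0 in AG, and 0.177 and 0.113 TPM in EPI. Every trichome library held it at a trace or at 0. Phvul.002G179966.v2.1 (chromosome 2, 33940644 to 33941039, plus strand) followed with a ratio of 78.2, from 13.5 and 51.2 TPM in BG, 0.0421 TPM and 0 in AG, and 0.172 TPM and 0 in EPI.

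The members with the largest ratios were mostly genes of modest level in hooked hairs. A highest trichome level under 1 TPM was found in 12 members, and 9 of the 12 largest ratios came from such genes. Phvul.011G005100.v2.1 (chromosome 11, 373621 to 374353) stood at 22.8 and 28.5 TPM in BG and 0.484 and 0.241 TPM in AG, and was listed at 0 in both EPI libraries. Phvul.007G266900.v2.1 (chromosome 7, 38795610 to 38796588) showed the same arrangement at 16.8 and 18.4 TPM in BG and 0.813 and 0.421 TPM in AG. Phvul.002G020200.v2.1 (chromosome 2, 2163791 to 2164384) did so at 12.2 and 13.4 TPM in BG and 0.518 and 0.549 TPM in AG. In these 3 genes the trace was in AG and the EPI libraries held none of the listed signal.

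The other genes of the 12 largest ratios had a trace in 1 library of a group and less in the other. Phvul.005G067900.v2.1 (chromosome 5, 11611026 to 11611277) is a gene of 252 bp with 12.1 and 13.1 TPM in BG, 0.321 TPM in AG library 1 and 0 in the other 3 trichome libraries. Phvul.008G083800.v2.1 (chromosome 8, 8181649 to 8187790) stood at 12.9 and 43.9 TPM in BG, 0.601 TPM in AG library 1 and 0.287 TPM in EPI library 1, with 0 in library 2 of both groups. Phvul.007G169601.v2.1 (chromosome 7, 28622158 to 28625199) had 0.191 and 0.840 TPM in the same 2 trichome libraries, again 0 in library 2 of both groups, and 21.8 and 16.7 TPM in BG. In these 3 genes the trichome coverage was 1.12 reads per base or less in every library. The remaining 2 had some signal in all 4 trichome libraries. Phvul.007G276100.v2.1 (chromosome 7, 39652932 to 39654452) stood at 34.9 and 79.3 TPM in BG and up to 1.71 TPM in trichomes. Phvul.010G021700.v2.1 (chromosome 10, 3083937 to 3090251) stood at 22.5 and 17.02 TPM in BG and up to 0.876 TPM in trichomes.

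Values listed at 0 were not the rule among members. In 89 members all 4 trichome libraries held some signal, 18 were listed at 0 in 1 of them, 15 in 2 and 3 in 3. By library, 0 members were listed at 0 in AG library 1, 22 in AG library 2, 9 in EPI library 1 and 26 in EPI library 2. No member was at 0 throughout the trichomes, and this follows from the last step of the rule. That step compares 0 with 0 as satisfied, so of the 10 genes left out, 5 had both AG libraries at 0 and 4 of these also had an EPI library at 0. One of them, Phvul.006G047200.v2.1, stood at 11.03 and 27.7 TPM in BG and held none of the listed signal in trichomes. The most abundant gene left out, Phvul.002G027200.v2.1, had levels in both EPI libraries, 20.7 and 13.4 TPM, against 1.52 and 0.204 TPM in AG and 125.1 and 83.6 TPM in BG.

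Near the thresholds, members and other genes were alike. Just inside 10 TPM were Phvul.002G191200.v2.1, Phvul.008G025100.v2.1 and Phvul.010G052400.v2.1, with 10.1, 10.3 and 10.6 TPM in their lower BG library. Just outside were Phvul.003G180000.v2.1, Phvul.009G032900.v2.1 and Phvul.002G109500.v2.1, with 9.96, 9.83 and 9.47 TPM. The smallest ratios among members were 4.01 in Phvul.009G110400.v2.1, 4.08 in Phvul.005G129900.v2.1 and 4.08 in Phvul.008G057600.v2.1. The nearest ratios below were 3.95 in Phvul.001G094400.v2.1, 3.95 in Phvul.011G153600.v2.1 and 3.93 in Phvul.005G151800.v2.1. Among genes that reached 100 TPM in each BG library, those closest in pattern without being members were Phvul.011G153600.v2.1, Phvul.006G103300.v2.1 and Phvul.004G098301.v2.1, with ratios of 3.95, 3.83 and 3.66 over the 6 libraries. Phvul.011G153600.v2.1 stood at 348.7 and 258.3 TPM in BG, and only EPI library 1, at 65.4 TPM, kept it out.

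The 2 hooked hair libraries did not hold the members at the same level. BG library 2 was above BG library 1 in 99 of 125 members (79.2%), against 57.9% of the 11827 genes that reached 10 TPM in both. Over all genes tested the share was 53.3%. Median-of-ratios scaling divides each library by its median ratio to the geometric mean of each gene, over genes above 0 in every library. After this scaling the count was 92 members (73.6%), against 48.1% of all genes tested. The ratio of BG library 2 to BG library 1 had a median of 1.42 and ranged from 0.459 to 6.13. The replicates lay within 2-fold of each other in 88 members (70.4%), against 91.9% of the 11827 genes. In 35 members (28.0%) library 2 was at least 2 times library 1, against 2.96% of the 11827 genes. The widest gap was in Phvul.008G025100.v2.1 (chromosome 8, 2061335 to 2063127), at 10.3 and 62.9 TPM. Among the 12 most abundant members it was widest in Phvul.010G077000.v2.1, described above.

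**Figure D3:**
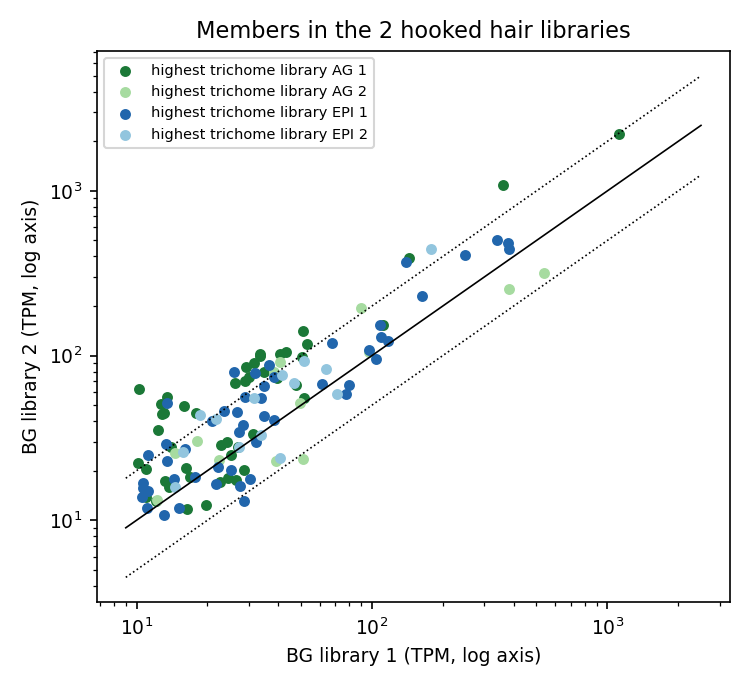
Level of each of the 125 members in BG library 1 (x) and BG library 2 (y), in TPM on log axes, coloured by the trichome library in which the member was highest; the solid line marks equal levels and the dotted lines 2-fold. Most members lie above the solid line, 99 of 125, and 35 lie at or above the upper dotted line.

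The residue of the members in trichomes was also uneven between libraries of 1 group. The highest trichome library was AG library 1 for 48 members and EPI library 1 for 50, against 13 for AG library 2 and 14 for EPI library 2. Over those 11827 genes the corresponding shares were 15.7%, 25.7%, 26.3% and 32.2%, in that order. In 57 members (45.6%) the highest trichome library was at least 2 times the next, against 15.96% of the tested genes. It was AG library 1 in 25 members (20%, against 2.99% of the tested genes) and EPI library 1 in 29 (23.2%, against 6.75%). It was EPI library 2 in 3 members (2.4%, against 3.495%) and AG library 2 in 0 (against 2.72%). The tested genes were not chosen for low trichome levels, as the members were. AG library 1 was above AG library 2 in 92 members (73.6%) and EPI library 1 above EPI library 2 in 94 (75.2%), against 33.6% and 43.8% of the 21571 tested genes, those that reached 1 TPM in 2 or more libraries. After median-of-ratios scaling the counts were 101 (80.8%) and 96 (76.8%) members, against 54.7% and 51.97% of the tested genes.

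As a percentage of the BG mean, the median member stood at 5.96% in AG library 1, 2.47% in AG library 2, 6.57% in EPI library 1 and 1.5% in EPI library 2. Members differed widely within each library. In EPI library 1 the quartiles were 1.87% and 11.8% of the BG mean, and the full range was 0 to 23.4%. In AG library 1 the quartiles were 2.92% and 9.39%, and the range was 0.0654% to 19.2%. In 55 members (44.0%) AG library 1 and EPI library 1 were both above AG library 2 and EPI library 2, against 7.52% of the tested genes. After the scaling it was 64 members (51.2%) against 15.0% of the tested genes.

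**Figure D4:**
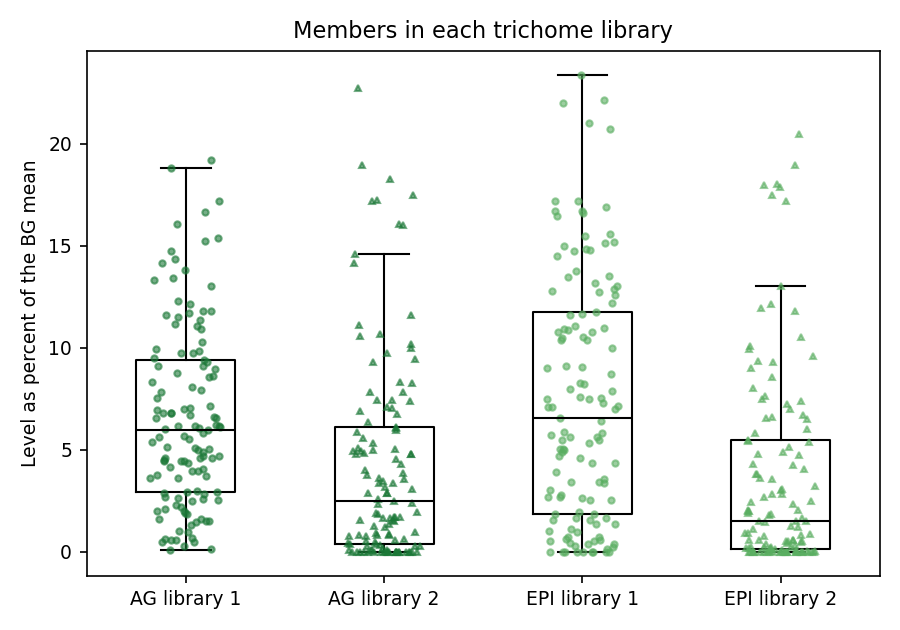
Level of each of the 125 members in each trichome library, as percent of its mean over the BG libraries; boxes give the quartiles and the median, whiskers reach to 1.5 times the box, and each point is a member. The medians are 5.96% and 2.47% in the AG libraries and 6.57% and 1.5% in the EPI libraries, with wide spread in all 4.

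The trichome residue was then set beside the difference between the BG libraries. Of the 35 members with BG library 2 at least 2 times BG library 1, AG library 1 was the highest trichome library in 23 and EPI library 1 in 7. Among the 64 members with BG library 2 above BG library 1 by less than 2-fold, the counts were 18 and 31. Among the 26 members with BG library 1 the higher, they were 7 and 12. AG library 1 was at least 2 times AG library 2 in 68.6%, 51.6% and 46.2% of the members of these 3 classes. EPI library 1 was at least 2 times EPI library 2 in 60.0%, 65.6% and 73.1% of them, an order opposite to that in AG. The members share their libraries, so these counts describe 6 libraries and are not independent observations.

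Members were then compared between AG and EPI. The rule sets a ceiling on both groups and leaves out genes with EPI far above AG, so this contrast is partly fixed by the choice of members. The mean was higher in AG for 64 of the 125 members (51.2%), against 40.3% of the tested genes. The AG and EPI libraries did not overlap in 36 members (28.8%), against 48.6% of the tested genes. Both AG libraries were the higher in 24 members (19.2%, against 17.98% of the tested genes) and both EPI libraries in 12 (9.6%, against 30.7%). On the log2(TPM + 1) scale the median difference of AG from EPI was 0.04 over the members and -0.15 over all tested genes. Median-of-ratios scaling moved these medians to 0.14 and -0.01. By limma on that scale, with Benjamini-Hochberg adjustment, 0 of the 125 members and 0 of the 21571 tested genes (0%) passed an adjusted p of 0.05. At an unadjusted p under 0.05 there were 6 members (4.8%), 4 higher in AG and 2 in EPI, where 16.5% of all tested genes did. On the log2(TPM + 1) scale the quartiles of the difference of AG from EPI were -0.43 and 0.51 over the members. Over the tested genes they were -0.58 and 0.25. The AG libraries lay within 2-fold of each other in 35.2% of the members, against 73.5% of the tested genes. The EPI libraries did so in 28% of the members, against 77.03%. The rule's ceiling holds members at low trichome levels. What lowered their share was not tested, so nothing is read from it.

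The member with the smallest p between AG and EPI was Phvul.009G257400.v2.1 (chromosome 9, 37778470 to 37782491), named after its values were seen. It stood at 4.59 and 3.24 TPM in AG, 0.288 and 0.131 TPM in EPI, and 51.7 and 55.0 TPM in BG. The log2 difference of EPI from AG was -2.01 ± 0.35 SE (limma adjusted p = 0.168). Both hooked hair libraries were at nearly the same level, and both AG libraries lay above both EPI libraries. Among the 12 members with both EPI libraries above both AG libraries, Phvul.001G003700.v2.1 had the highest BG level, at 107.8 and 153.1 TPM, with 6.99 and 6.41 TPM in EPI and 3.35 and 4.17 TPM in AG.

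In the contrast that chose them, 124 of the 125 members passed the threshold for BG above the mean of AG and EPI (limma, adjusted p under 0.05), where 3.31% of the 21571 tested genes did. All 125 members passed the filter on low values, which the rule on BG guaranteed. Since the rule used this contrast, nothing is read from the count. It was 0 without BG replicate 1 and 0 without BG replicate 2, where 1 library stood for BG and was taken to vary like the other groups. The member that did not pass was Phvul.002G196050.v2.1 (adjusted p = 0.129), whose uneven trichome levels are given above. Without EPI replicate 1 it passed (adjusted p = 0.0254), and in the other alternatives its adjusted p lay between 0.0691 and 0.393.

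Genes were also chosen in the libraries of 1 replicate number and read in the others. All 6 libraries had chosen the members, so this describes other lists that hold only part of the members. The same rule applied to the 3 libraries numbered 1 chose 259 genes, of which 82 were members. The other 43 members met 10 TPM and the ratio there too, as their choice required. Only the last step, which then compared EPI library 1 with AG library 1, left them out. In the libraries numbered 2, 219 of these (84.6%) were higher in BG than in both trichome libraries, against 38.9% of the tested genes, and 105 (40.5%) again reached 10 TPM and the ratio of 4, against 2.37%. Applied to the libraries numbered 2, the rule chose 377 genes, of which 85 were members. The last step likewise left out the other 40 members. In the libraries numbered 1, 341 of these (90.5%) were higher in BG, against 42.0% of the tested genes, and 123 (32.6%) again reached both levels, against 2.22%. The genes chosen in both numbered 74, which is 28.6% of the first list and 19.6% of the second. Genes that reached both levels are by construction among those higher in BG. The tested genes include many below 10 TPM in BG, so their shares are not those of comparable genes.

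**Figure D5:**
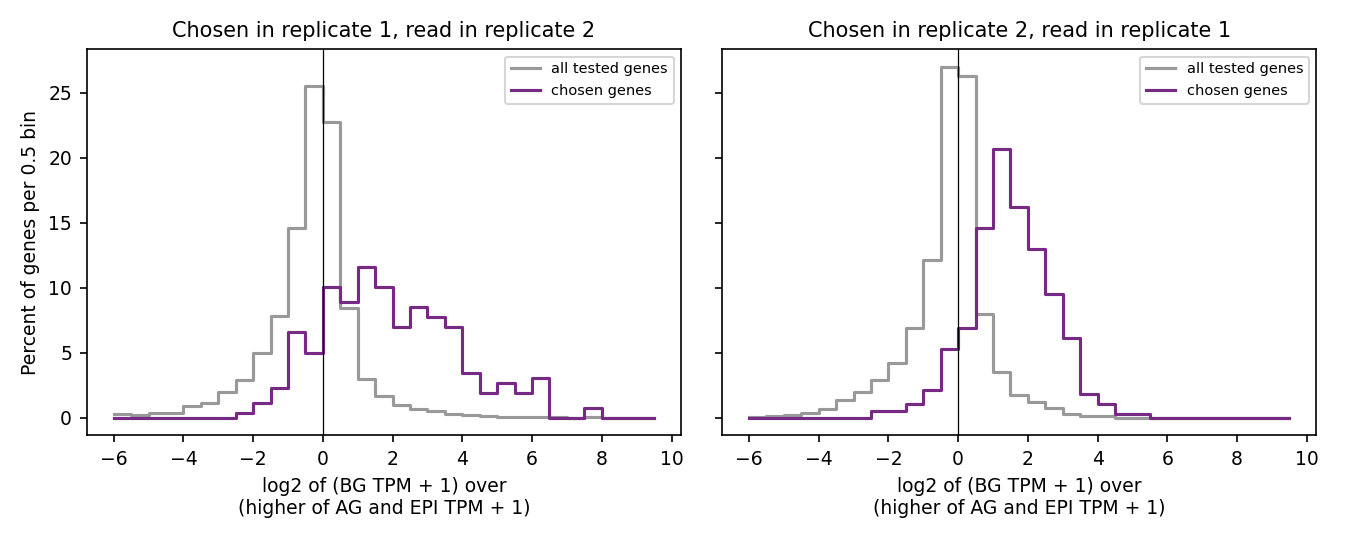
Distribution of log2 of (BG TPM + 1) over (higher of AG and EPI TPM + 1) in the libraries not used for choosing, as percent of genes per bin of 0.5, for genes chosen in replicate 1 and read in replicate 2 (left) and the reverse (right), beside all tested genes. The chosen genes lie mostly above 0, 84.6% on the left and 90.5% on the right, against 38.9% and 42.0% of all tested genes.

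The membership itself depended on single libraries. It was 258 genes without BG replicate 1, 333 without BG replicate 2 and 284 without EPI replicate 1. Leaving out any of the other 3 trichome libraries gave 107 to 148 genes. Leaving out a trichome library changes both the ceiling and the last step of the rule.

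Members lay on all 11 chromosomes, with 123 on chromosomes and 2 on scaffolds. Their share of the tested genes was between 0.315% on chromosome 4 (4 of 1269) and 0.901% on chromosome 11 (14 of 1554), and chromosome 1 held the largest number, 17. Members were shorter than other genes. Their span from start to end, introns included, had a median of 1801 bp, against 3738 bp for the 11827 genes that reached 10 TPM in both BG libraries and 3354 bp for all tested genes. A span under 1 kb was found in 34 members (27.2%), against 7.12% and 10.2%. The 2 strands were equally represented, with 63 members on the plus strand. Only 3 members overlapped another listed gene, Phvul.007G276100.v2.1 and Phvul.002G145900.v2.1 on the opposite strand and Phvul.008G012300.v2.1 on the same strand, so their levels may include reads of the partner.

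The Phvul numbers were not found in the RefSeq table of the bean assembly P. vulgaris v2.0, but most positions could be matched to it. Of the 27012 listed genes on chromosomes, 75.9% had exactly 1 RefSeq gene with a reciprocal overlap of at least 80%, and so did 82.7% of the tested genes there and 98 of the 123 members (79.7%). RefSeq classed 96 of these as protein coding and 2 as lncRNA. By this match Phvul.009G108100.v2.1 is LOC137822945, Phvul.010G077000.v2.1 is LOC137818380 and Phvul.010G066600.v2.1 is LOC137819555, all protein coding. A further 8 members overlapped no RefSeq gene, 6.50% of those on chromosomes against 3.21% of the tested genes.

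Some members had other members as neighbours. There were 3 pairs of members with no other tested gene between them, and 14 members lay within 100 kb of another. Neither count was set against other genes, so no clustering is read from them. The pair with the highest level, on chromosome 1, consisted of Phvul.001G099900.v2.1 (19872432 to 19877867, minus strand) and Phvul.001G100100.v2.1 (20014677 to 20018800, plus strand). The first stood at 50.7 and 141.2 TPM in BG, 3.47 and 0.733 TPM in AG, and 3.25 and 0.417 TPM in EPI. The second stood at 139.2 and 369.6 TPM in BG, 9.26 and 0.964 TPM in AG, and 33.1 and 1.499 TPM in EPI. Both were more than 2 times higher in BG library 2 than in BG library 1.

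On chromosome 2, Phvul.002G179966.v2.1 and Phvul.002G180032.v2.1 lie 24 bases apart on the plus strand. Their levels were alike in BG, at 13.5 and 51.2 TPM for the first and 15.9 and 49.7 TPM for the second. In AG library 1 they differed, at 0.0421 TPM for the first and 1.97 TPM for the second. In the other trichome libraries neither was above 0.172 TPM. Whether these are 1 transcript or 2 cannot be told from the tables. On chromosome 10, Phvul.010G016800.v2.1 and Phvul.010G016900.v2.1 (2485323 to 2487941 and 2500104 to 2502739, plus strand) were even between the BG libraries. They stood at 38.3 and 40.5 TPM and at 22.1 and 21.1 TPM in BG, and at no more than 6.14 and 2.91 TPM in trichomes.

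Genes beside members were higher in hooked hairs more often than other tested genes, although the rule did not use them. Among the 242 nearest tested genes on either side that were not members, 67 (27.7%) had both BG libraries above all 4 trichome libraries, and 23 (9.50%) had the lower BG library at least 2 times the highest trichome library. Over the 21446 tested genes that were not members, these shares were 15.8% and 3.16%. The reverse, both BG libraries below all trichome libraries, was found in 9.92% of the neighbours and 15.3% of the others. Neighbours that share reads or are near-identical copies were not left out.

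The places given next hold abundant neighbours of this kind and were chosen after their values were seen. Beside Phvul.011G182500.v2.1 lies Phvul.011G182700.v2.1 (49614150 to 49616006), at 2575 and 1604 TPM in BG, 67.6 and 390.0 TPM in AG, and 627.6 and 94.2 TPM in EPI. Between them Phvul.011G182600.v2.1 stood at 156.9 and 53.0 TPM in BG, 3.02 and 9.46 TPM in AG, and 35.0 and 0.175 TPM in EPI. In all 3 genes BG library 1, AG library 2 and EPI library 1 were the higher library of their group. On chromosome 4, Phvul.004G098301.v2.1 begins at the base after the end of Phvul.004G098201.v2.1, on the same strand, and stood at 145.9 and 410.5 TPM in BG and between 30.2 and 39.8 TPM in trichomes. Reads of this pair may be divided between them. On chromosome 2, Phvul.002G196000.v2.1 (36045344 to 36045863), which lies before Phvul.002G196050.v2.1 on the same strand, stood at 462.0 and 474.4 TPM in BG, 10.95 and 268.9 TPM in AG, and 205.4 and 79.2 TPM in EPI. It shared with that member the higher AG library 2 and the higher EPI library 1.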

How the data were processed

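RNA sequencing of 6 libraries (2 each of AG, EPI and BG) was analysed from 1 table per library. The titles gave each library its group and number. Per the labels' protocols, an RNeasy kit served for RNA extraction and a SMARTER kit for library preparation. Per the submitters' processing notes, the tools were StringTie, HISAT2 and Trimmomatic, with no version. For the reference, the build was not given in the sources used here. Coordinates are those of the tables. The deposited TPM values, the authors' scaling for gene length and library size, were the main measure. The FPKM values deposited by the authors served as an alternative, and the deposited coverage (reads per base) only for depth. The tables hold no read counts, so no counting intervals are given.

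The members and lists were chosen with earlier results of these data known. Values were analysed as log2(TPM + 1), which understates differences of low genes, in limma 3.58.1 (R 4.3.3), over 21571 genes that reached 1 TPM in 2 or more libraries. A mean was fitted per group, leaving 3 residual degrees of freedom, with a variance trend, two-sided tests and Benjamini-Hochberg adjustment over all tested genes. The fit was tested on simulated data. Median-of-ratios scaling of the counts of members by library was an alternative added after seeing the data. Of the listed IDs, 0 were found among 34165 RefSeq rows, and LOC names come from position (reciprocal overlap of at least 80% with exactly 1 RefSeq gene of P. vulgaris v2.0). Gene lists and cell type markers, which need product names, could not be matched. Members named were the 12 highest by BG mean, the 12 largest ratios, the 3 pairs of neighbouring members and the 3 genes on either side of each threshold. Phvul.001G003700.v2.1, Phvul.009G257400.v2.1, overlapping genes, genes the last step left out and genes beside members were chosen after their values were seen. Figures were drawn with matplotlib 3.10.9.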

Additional observations from a re-analysis of the deposited data

How the results depend on the processing

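The number of members, 125, changed with the thresholds and with the libraries used. It held 79 genes at 20 TPM, 332 at a ratio of 2, 58 at a ratio of 8, 79 with FPKM in place of TPM, 259 in the replicate 1 libraries alone and 377 in the replicate 2 libraries alone. Leaving out 1 library at a time gave 107 to 333 genes. It held 185 genes at 5 TPM, 135 with no exclusion and 119 after median-of-ratios scaling, of which 116 were members. In the BG libraries 1 FPKM corresponded to a median coverage of 3.02 and 2.43 reads per base. For 1 TPM it was 1.62 and 1.28, so the same number is a stricter level in FPKM. The number of members past the threshold for BG above trichomes, 124, was 89 to 122 under another pseudocount, no filter, median-of-ratios scaling or no variance trend, and 0 to 125 when 1 library was left out. With the replicate number as a block it was 116. The labels do not pair the numbers. Over the tested genes the differences between library 1 and library 2 correlated at 0.096 (AG and BG), -0.032 (AG and EPI) and 0.25 (BG and EPI). Over the 125 members, chosen on these same libraries, the values were -0.36, 0.027 and 0.15 in that order. For EPI against AG the number of members past the threshold was 0 in all alternatives, the block included. The direction of BG above trichomes in the named members is fixed by the rule and says nothing of stability. Trichome levels under about 1 TPM rest on about 1 read per base.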
